A study of Mus musculus with 208 samples.

Results

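The data described are the response of hippocampal neurons to lipopolysaccharide (LPS) in mice that were never given morphine: bulk RNA-seq libraries of NeuN+ nuclei labelled SAL-LPS were compared with those labelled SAL-SAL. Libraries whose total count was under 0.5 of the hippocampal table's median total were to be dropped, which removed none of these, and genes with a mean of at least 1 CPM (counts scaled to a common library total) over the kept libraries were described. That left 27 libraries of 208 in the series, 14 SAL-LPS (8 from females, 6 from males) and 13 SAL-SAL (6 from females, 7 from males), and 14006 described genes of 46403 in the table. At the edge of the expression limit, Fam46a had 0.998 CPM and was left out, and Rdm1 had 1.00 CPM and was kept.

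All 27 mice were wild type C57BL/6NTac adults. Their dams carried saline minipumps, the pups were fostered to drug-naive mothers and injected with saline for the first postnatal weeks, and the groups differed in 1 adult injection, LPS or saline, given 2 h before the tissue was punched and frozen. The study is built around perinatal morphine, and the saline-exposed mice supply the immune response against which the morphine-exposed mice (MOR-LPS and MOR-SAL) are read. Nuclear RNA from a sorted pool of NeuN+ nuclei holds fresh transcripts and lacks most of the cytoplasm, and since each library is a bulk pool, fewer nuclei of a neuron type and less RNA per nucleus cannot be told apart.

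LPS is the outer membrane component of Gram-negative bacteria that the receptor TLR4 detects. Neurons are thought to meet a peripheral dose mostly at second hand, through blood-borne cytokines, prostaglandins and the corticosterone surge, which act through JAK-STAT, NF-kB and the glucocorticoid receptor. In the hippocampus such illness signals are known for their effects on synaptic plasticity and memory.

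Total counts ran from 7021843 to 17631293 in SAL-LPS and from 6036905 to 22488625 in SAL-SAL. The 10 neuronal markers summed to between 5653 and 8216 CPM in SAL-LPS and between 6159 and 9050 CPM in SAL-SAL, while 12 microglial markers, of which P2ry12 is at 0 throughout, summed to at most 47.5 and 54.8 CPM, 10 oligodendrocyte markers to at most 564 and 1069 CPM and 10 astrocyte markers to at most 617 and 1236 CPM. The regional identity was less even. The 8 markers of medium spiny neurons, the principal cells of the striatum, summed to between 420 and 5627 CPM (median 972) in SAL-LPS and between 472 and 4278 CPM (median 727) in SAL-SAL, and Drd1, their dopamine receptor gene, stood above 10 CPM in 6 of 14 SAL-LPS libraries against 1 of 13 SAL-SAL libraries. Prox1, the homeobox gene of dentate granule cells, reached only 5.73 to 84.4 CPM in those 6 libraries and 37.8 to 254 CPM in the other 8. Low Prox1 also occurred in SAL-SAL, with 15.7 to 346 CPM in the 12 libraries of lower Drd1 and 39.4 CPM in the 1 of high Drd1. Y-linked genes went against the labelled sex in 1 library, SAL-LPS 2-2. The limit of 10 CPM was set after the data were seen, and the called genes named below are therefore given with and without the 7 libraries above it (those of the morphine-exposed mice above it were also left out of that fit). The comparisons with morphine-exposed mice and with other regions used all libraries unless stated. Several genes that neurons commonly use, among them B2m and Tubb3, are listed at 0 in all 27 libraries, so a 0 in this table is not read as absence.

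**Figure D1:**
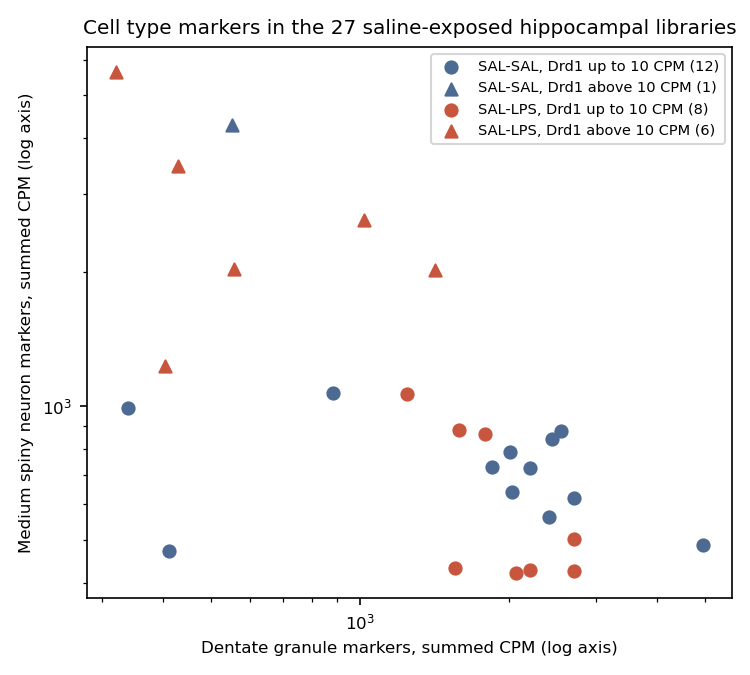
Each point is 1 of the 27 hippocampal libraries, with the summed CPM of 8 dentate granule markers on the horizontal axis and of 8 medium spiny neuron markers on the vertical axis, both on log axes. The 7 triangles are the libraries with Drd1 above 10 CPM, whose medium spiny sums lie between 1229 and 5627 CPM, and 6 of them are SAL-LPS.

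At 2 h after LPS a small set of genes differed between the hippocampal neurons of challenged and control mice. Rps6ka5, which encodes the stress and mitogen activated kinase MSK1, had the smallest p among the genes that rose, and Npy2r, the presynaptic Y2 receptor for neuropeptide Y, the smallest among those that fell. Stat3, the transcription factor of interleukin-6 signalling, and Cdkn1a, the cell cycle inhibitor p21 that glucocorticoids induce, also rose. None of the 18 described NF-kB and acute inflammatory genes passed the test. Of the 14006 described genes, 202 passed an adjusted p of 0.05 (1.44%; edgeR quasi-likelihood test, Benjamini-Hochberg over the 22069 genes fitted), of which 108 were higher in SAL-LPS and 94 lower. The higher genes had a median log2 fold change (log2FC) of 0.69, from 0.31 to 5.17, with 34 over 1. The lower genes had a median of -0.71, from -0.36 to -3.99, and 23 fell by more than 1 log2 unit.

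These calls sat close to the threshold and did not hold in every fit. The smallest adjusted p was 0.0246, and 1925 described genes had an unadjusted p under 0.05. All 202 genes kept their sign, and 196 an unadjusted p under 0.05, when litter, which the animals of both groups share, was entered as a block, but 0 then passed the adjusted threshold (edgeR, smallest adjusted p = 0.113), as was the case when the 27 saline-exposed libraries were fitted alone (0 called, smallest adjusted p = 0.0832 in edgeR). The 202 genes were picked in these same libraries, so neither their kept sign nor their unadjusted p is independent support. With rarely counted genes removed before the fit (mean CPM of at least 1), 43 passed, 33 higher and 10 lower. Without the libraries with Drd1 above 10 CPM 142 passed, 51 of them among the 202. Leaving out single libraries gave 99 to 253 called genes. The count fell by more than 1.5 times without SAL-LPS 5-2 (99), 11-0 (114), 1-2 (117) or 3-3 (120) and without SAL-SAL 11-1 (121), 5-1 (129) or 3-2 (131), and it was 0 without the saline animals of litter 3.

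**Figure D2:**
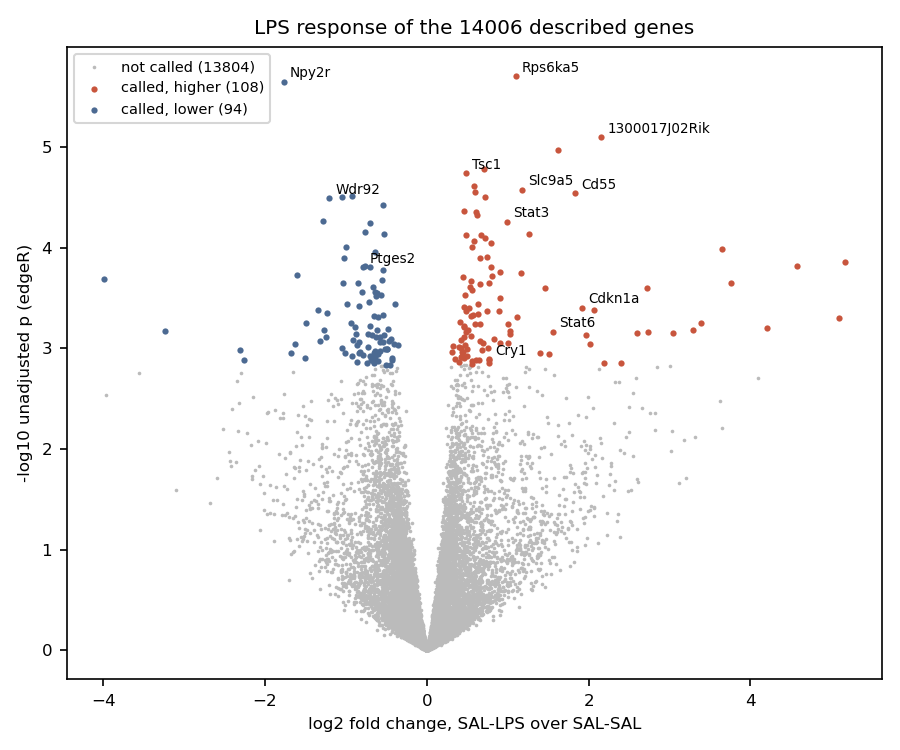
Each of the 14006 described genes is plotted by its log2 fold change, SAL-LPS over SAL-SAL, and by -log10 of its unadjusted p from edgeR. The 108 genes called higher and the 94 called lower lie on both sides, with Rps6ka5 and Npy2r named among those of smallest p.

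The higher genes of smallest p are taken first. Rps6ka5 (mm10 chromosome 12, 100548439-100726983, minus strand) acts below ERK and p38 and phosphorylates CREB and histone H3 in activated neurons. Its level was 42.1, 67.3 and 163 normalised CPM (lowest, median, highest) in SAL-SAL and 79.3, 138 and 400 in SAL-LPS. All 14 SAL-LPS libraries lay above the SAL-SAL median, though the ranges overlapped. The means were 79.2 ± 35.9 (SD, n = 13) and 169 ± 89.3 (SD, n = 14), a log2FC of 1.10 with a standard error (SE) of 0.21 and an adjusted p of 0.0246 in edgeR. Without the libraries with high Drd1 the log2FC of Rps6ka5 was 0.59 (adjusted p = 0.0691 in edgeR). Its exons overlap those of Gm49703, and reads of the 2 genes may not be separable.

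Tsc1 encodes hamartin, which together with tuberin restrains mTORC1 and so protein synthesis. Its normalised CPM was 106, 137 and 174 in SAL-SAL and 148, 196 and 266 in SAL-LPS, with all 14 challenged libraries above the control median and overlap only between the lowest of them and the highest controls. The log2FC of Tsc1 was 0.48 (SE 0.10, adjusted p = 0.0252 in edgeR) and 0.52 without the libraries with high Drd1, where it stayed called. Slc9a5, the sodium-proton exchanger NHE5 of neuronal endosomes, went from 7.17, 18.3 and 46.1 to 21.6, 50.1 and 99.7 normalised CPM (log2FC 1.18, SE 0.26). The group ranges overlapped, with all 14 SAL-LPS libraries over the SAL-SAL median. Slc9a5 too was called without those libraries, at a log2FC of 1.22.

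Usp3, a deubiquitinase of histones H2A and H2B, had a log2FC of 0.71, and Brd8, a bromodomain subunit of the TIP60 acetyltransferase complex, one of 0.59. Brd8 was above the control median in all 14 SAL-LPS libraries and Usp3 in 11 of 14. Brd8 stayed called without the libraries with high Drd1 (log2FC 0.70) and Usp3 did not (log2FC 0.52, adjusted p = 0.0815 in edgeR). Adar, the adenosine deaminase that edits double-stranded RNA and has an interferon-inducible isoform, ran at 101, 126 and 185 normalised CPM in SAL-SAL and at 141, 175 and 226 in SAL-LPS (log2FC 0.49, SE 0.11). Znfx1, a helicase-like sensor of viral RNA, had a log2FC of 0.67. Adar and Znfx1 were picked after their values were seen, and Adar remained called without the libraries with high Drd1 while Znfx1 did not (log2FC 0.36, adjusted p = 0.243 in edgeR).

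Other genes of small p on the higher side were Cd55, 1300017J02Rik, Gm28050, Crebrf, Cdc14b, Specc1l and Amy1. Cd55, the decay-accelerating factor that shields cells from complement, had 0.400, 3.43 and 5.41 normalised CPM in SAL-SAL and 0.714, 12.0 and 21.8 in SAL-LPS, a log2FC of 1.83 (SE 0.40). Of the SAL-LPS libraries 12 of 14 exceeded the control median of Cd55, and the ranges overlapped. The gene 1300017J02Rik rose with a log2FC of 2.16 (SE 0.44) from 0.473, 2.04 and 5.49 to 2.17, 6.48 and 43.3 normalised CPM. Gm28050, a lincRNA whose exons overlap Gm28039, had a log2FC of 1.62. Crebrf, a regulator of the CREB3 family and of metabolism, Cdc14b, a phosphatase of the cell cycle, Specc1l, which links microtubules and actin, and Amy1, an amylase, had a log2FC of 0.58, 0.72, 0.45 and 0.60. Without the libraries with high Drd1, Crebrf and Cdc14b were no longer called (log2FC 0.49 and 0.50, adjusted p = 0.063 and 0.109 in edgeR) and the other 5 were.

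**Figure D3:**
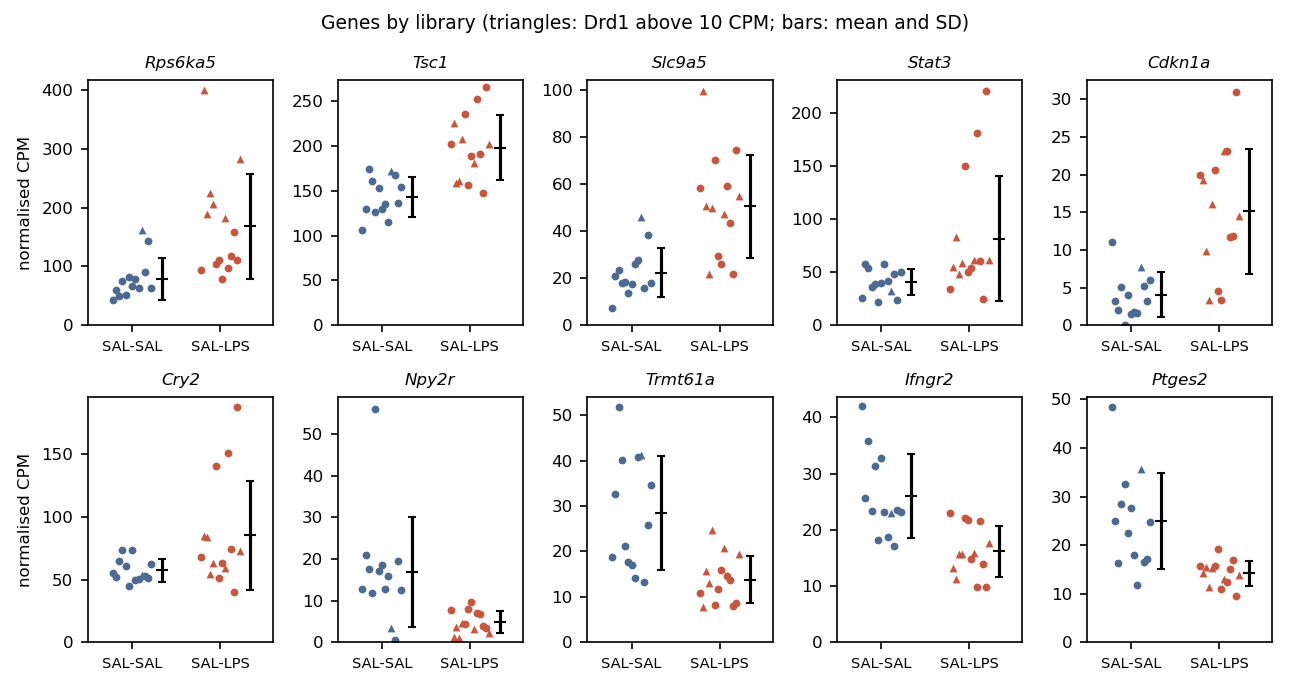
Normalised CPM of 10 named genes in each of the 13 SAL-SAL and 14 SAL-LPS libraries (triangles are libraries with Drd1 above 10 CPM), with the mean and SD beside each group. In each gene the groups overlap. All 14 SAL-LPS libraries lie above the SAL-SAL median for Rps6ka5, Tsc1, Slc9a5 and Cdkn1a and below it for Npy2r, Trmt61a, Ifngr2 and Ptges2.

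Npy2r (mm10 chromosome 3, 82538383-82548084, minus strand), the receptor through which neuropeptide Y damps transmitter release at hippocampal terminals, led the lower genes. Npy2r had 0.508, 16.0 and 56.0 normalised CPM in SAL-SAL and 1.14, 4.18 and 9.63 in SAL-LPS. Every one of the 14 SAL-LPS libraries lay under the SAL-SAL median, and the SAL-LPS range lay within that of SAL-SAL, which was broad. The means were 16.9 ± 13.2 (SD, n = 13) and 4.8 ± 2.65 (SD, n = 14), a log2FC of -1.77 (SE 0.34, adjusted p = 0.0246 in edgeR). Npy2r stayed called without the libraries with high Drd1, at -1.48.

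Several enzymes were among the lower genes. Trmt61a, the catalytic subunit of a tRNA methyltransferase, was at 13.2, 25.7 and 51.7 normalised CPM in SAL-SAL and at 7.81, 13.4 and 24.6 in SAL-LPS (log2FC -1.05, SE 0.23). Its ranges overlapped, with 14 of 14 SAL-LPS libraries under the control median. Tkt, the transketolase of the pentose phosphate pathway, Acot7, the main acyl-CoA thioesterase of brain, and Rimklb, which joins glutamate to N-acetylaspartate, had a log2FC of -0.64, -0.54 and -0.92. Each of these 3 genes was below the control median in 13 of 14. Of these 4 genes only Trmt61a was still called without the libraries with high Drd1 (log2FC -1.25), where Tkt, Acot7 and Rimklb had a log2FC of -0.51, -0.44 and -0.70.

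Wdr92, which serves the assembly of dynein arms, had a log2FC of -1.20, and its exons overlap Ppp3r1 and Pno1. Mturn, a promoter of neuronal differentiation, Mmd, a membrane protein of the progestin and adipoQ receptor family, Fndc4, a secreted fibronectin-domain protein, and the lincRNA Gm33533 had a log2FC of -0.77, -0.53, -1.03 and -1.29. Ranges overlapped for all 5 genes. Wdr92 and Gm33533 kept their calls without the libraries with high Drd1, and Mturn, Mmd and Fndc4 did not (log2FC -0.58, -0.40 and -0.94, adjusted p = 0.0863, 0.105 and 0.0698 in edgeR). Exons of Cd55, Cdc14b, Amy1, Adar, Znfx1, Tkt, Tubb4b, Tuba1a, Mturn, Mmd, Gm33533, Stat6, Cdkn1a, Cry2 and Nrn1 overlap those of another annotated gene, and part of their counts may belong to it.

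The tubulins were looked at as a family after Tubb5 had been seen among the called genes, so their counts describe and do not test. Tubulins are the subunits of microtubules, along which axonal cargo moves. Of 15 described tubulin genes 14 had a negative log2FC (median -0.61, against -0.01 over all described genes, of which 48.7% were positive), and 4 were called lower (0.671% of described genes were), namely Tubb5, Tubb2a, Tubb4b and Tuba1a. Tubb5 was at 45.9, 68.6 and 198 normalised CPM in SAL-SAL and at 14.6, 41.2 and 61.6 in SAL-LPS (log2FC -0.85, SE 0.22). All 14 SAL-LPS values of Tubb5 and of Tuba1a were under the control median, with overlapping ranges. Of these 4 genes only Tubb5 stayed called without the libraries with high Drd1 (log2FC -0.94). Tubb2a, Tubb4b and Tuba1a had a log2FC of -0.55, -0.80 and -0.87 there (adjusted p = 0.231, 0.0981 and 0.0975 in edgeR). Near-identical coding sequences within the family make the split of reads between members uncertain.

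Cytokine receptors and JAK-STAT components carry the signal of circulating cytokines to the nucleus, and 27 of the 39 listed were described. Stat3 and Stat6 were called higher (0.771% of described genes were called in that direction) and Ifngr2 lower (0.671% were), while the list's median log2FC was -0.09 beside -0.01 over all described genes. Stat3 was at 21.7, 39.3 and 57.5 normalised CPM in SAL-SAL and at 24.2, 59.4 and 221 in SAL-LPS, a log2FC of 0.99 (SE 0.23, adjusted p = 0.0252 in edgeR). Of the SAL-LPS libraries 12 of 14 lay above the control median, and the upper tail belonged to 3 males, 5-2, 3-3 and 11-0, with 221, 181 and 150 normalised CPM. In females alone the log2FC of Stat3 was 0.19 (adjusted p = 0.884 in edgeR) and in males alone 1.73 (adjusted p = 0.0118 in edgeR), a difference that did not pass when tested over all genes (log2 difference, female minus male, -1.53, adjusted p = 0.227 in edgeR). SAL-LPS 2-2, whose Y-linked genes go against its label, counts as a female in these values. Stat3 stayed called without the libraries with high Drd1, at a log2FC of 1.18, and its exons overlap Stat5a on the other strand.

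Stat6, the transcription factor of interleukin-4, was low in both groups, with means of 2.66 ± 2.28 and 7.81 ± 4.41 normalised CPM (SD), and was no longer called without those libraries (log2FC 1.25, adjusted p = 0.125 in edgeR). Ifngr2, the signalling chain of the interferon-gamma receptor, went from 17.1, 23.4 and 42.0 to 9.85, 15.7 and 23.1 normalised CPM. All 14 SAL-LPS values were under the SAL-SAL median, with overlap of the ranges. The log2FC of Ifngr2 was -0.71 (SE 0.16) and -0.63 without the libraries with high Drd1, where the adjusted p was 0.0772 in edgeR. Socs5, a suppressor of cytokine signalling, had a log2FC of -0.28 and did not pass.

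Target genes of NF-kB and acute inflammation gave 0 calls among 18 described of 42 listed, with a median log2FC of -0.10 and 2 members at an unadjusted p under 0.05. Over all described genes 1.44% were called and 13.7% had an unadjusted p under 0.05, so 0 calls and 2 such members lie near the background for a list of this size, as they do for the interferon genes below. Nfkb1, the p105 precursor of NF-kB, had 90.4 ± 21.8 normalised CPM in SAL-SAL and 86.1 ± 17.8 in SAL-LPS (SD; log2FC -0.08, SE 0.12, adjusted p = 0.815 in edgeR). Nfkbia, the inhibitor that NF-kB itself induces, had a log2FC of 0.45 with an SE of 0.39. Saa3, an acute phase gene, was at 0 in 9 of 13 SAL-SAL and 3 of 14 SAL-LPS libraries, with means of 0.35 ± 0.85 and 2.27 ± 2.09 normalised CPM (SD). Its log2FC of 2.36 (SE 1.15) was the highest of the list and did not pass the test (adjusted p = 0.25 in edgeR). Il6 stayed at or below 0.129 CPM in SAL-LPS and 0.166 CPM in SAL-SAL.

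The interferon and antigen presentation genes were not called either, 0 of 17 described of 38 listed, and 13 of the 17 were positive (48.7% of all described genes were) with a median log2FC of 0.40 and 2 reached an unadjusted p under 0.05. H2-D1, a class I heavy chain, ran at 3.51, 9.07 and 15.0 normalised CPM in SAL-SAL and at 1.64, 16.1 and 26.6 in SAL-LPS (log2FC 0.79, SE 0.31, adjusted p = 0.134 in edgeR). Irf7, the regulator that amplifies interferon responses, had a mean of 1.04 and 1.66 normalised CPM and Ifit1, an effector that binds viral RNA, one of 2.07 and 1.16, with libraries at 0 in both groups for each. Neither passed (adjusted p = 0.736 and 0.608 in edgeR).

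Glucocorticoid-induced genes gave 1 call among 24 described of 30 listed (0.771% of described genes were called higher). Of the 24, 16 were positive (48.7% of all described genes were), with a median log2FC of 0.20. The called gene was Cdkn1a, at 0, 3.19 and 11.0 normalised CPM in SAL-SAL and at 3.29, 15.3 and 31.0 in SAL-LPS. All 14 SAL-LPS libraries exceeded the SAL-SAL median, and the ranges overlapped between 3.29 and 11.0. The log2FC was 1.91 (SE 0.51, adjusted p = 0.0344 in edgeR), and it was 2.18 without the libraries with high Drd1, where Cdkn1a stayed called. Fkbp5, the chaperone that feeds back on the glucocorticoid receptor, had a log2FC of 0.53 (adjusted p = 0.114 in edgeR) over all libraries and 0.83 (adjusted p = 0.0425 in edgeR) without those with high Drd1. Plekhf1, an endosomal protein of the same list, was the farthest from 0 on the lower side, with a mean of 3.09 and 0.57 normalised CPM and libraries at 0 in both groups (log2FC -2.41, SE 0.80, adjusted p = 0.0756 in edgeR). Lpin1, a phosphatidate phosphatase of lipid synthesis outside the list, picked after its values were seen, was called in both fits, at a log2FC of 0.62 and 0.83.

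Of the circadian clock genes 3 of 17 described were called higher (0.771% of described genes were) and 0 lower. Of the 17, 12 were positive (48.7% of all described genes were) and 5 negative, with a median log2FC of 0.34. The called genes were Cry1 and Cry2, the cryptochromes that repress CLOCK and BMAL1, and Hlf, an output transcription factor of the PAR bZIP family. Cry2 was at 44.7, 53.7 and 73.8 normalised CPM in SAL-SAL and at 40.1, 70.3 and 188 in SAL-LPS (log2FC 0.55, SE 0.15, adjusted p = 0.0409 in edgeR). Cry1 went from 6.62, 11.6 and 25.2 to 8.11, 18.4 and 76.1 normalised CPM (log2FC 0.77, SE 0.23). The groups overlapped widely in both, and the 3 highest values of each gene came from the same 3 males as those of Stat3. In females alone the log2FC was 0.34 for Cry1 and 0.07 for Cry2, and in males alone 1.22 and 1.03, differences that did not pass (adjusted p = 0.661 and 0.227 in edgeR). Hlf had a log2FC of 0.43 (SE 0.12), and Per1, the light- and glucocorticoid-induced period gene, did not pass (log2FC 0.47, adjusted p = 0.123 in edgeR). Without the libraries with high Drd1, 0 clock genes were called (Cry1, Cry2 and Hlf at an adjusted p of 0.087, 0.0524 and 0.156 in edgeR, with a log2FC of 0.82, 0.65 and 0.35) and the list's median was 0.16.

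Promoters of called signalling and clock genes were searched because these factors act through known motifs. These are the cyclic AMP element for CREB, which MSK1 phosphorylates, the kB site for NF-kB and the E-box for CLOCK and BMAL1. Sequences are given for Cry1, Hlf, Ifngr2 and Stat3 only. Each sequence runs from 250 bases before to 50 bases after the transcription start in RefSeq (GRCm38.p6), in lower case, with matches in capitals. Searched on both strands were TGACGTCA (cyclic AMP element, in 1.79% of 32851 promoters), GGACTTTCC and GGAATTTCC (kB, 0.344% and 0.317%), TTCCNGGAA (STAT, 1.15%), ACANNNTGT (glucocorticoid receptor core, 6.85%), CACGTG (E-box, 7.15%), and CCATATTAG and CCTTATTTG (serum response element, 0.103% and 0.268%).
Cry1, chr10:85185005-85185304, minus strand: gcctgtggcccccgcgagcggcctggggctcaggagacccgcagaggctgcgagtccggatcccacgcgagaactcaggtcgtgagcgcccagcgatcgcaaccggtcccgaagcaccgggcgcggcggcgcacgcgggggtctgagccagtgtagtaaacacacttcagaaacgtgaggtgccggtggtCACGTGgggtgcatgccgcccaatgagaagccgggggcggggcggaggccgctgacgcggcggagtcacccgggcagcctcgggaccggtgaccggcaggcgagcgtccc
Hlf, chr11:90390868-90391167, minus strand: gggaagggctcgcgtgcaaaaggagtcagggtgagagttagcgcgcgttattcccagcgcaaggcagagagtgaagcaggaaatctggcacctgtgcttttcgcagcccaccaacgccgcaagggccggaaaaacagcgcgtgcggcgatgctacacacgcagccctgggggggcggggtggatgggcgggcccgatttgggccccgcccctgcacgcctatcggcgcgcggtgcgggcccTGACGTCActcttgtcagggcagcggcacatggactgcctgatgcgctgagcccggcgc
Ifngr2, chr16:91546809-91547108, plus strand: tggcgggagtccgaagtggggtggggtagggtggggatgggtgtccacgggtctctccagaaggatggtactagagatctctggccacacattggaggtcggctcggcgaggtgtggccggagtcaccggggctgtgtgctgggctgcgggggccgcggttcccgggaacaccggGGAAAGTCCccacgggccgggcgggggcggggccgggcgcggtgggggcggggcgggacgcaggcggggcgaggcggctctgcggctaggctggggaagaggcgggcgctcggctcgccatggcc
Stat3, chr11:100939491-100939790, minus strand: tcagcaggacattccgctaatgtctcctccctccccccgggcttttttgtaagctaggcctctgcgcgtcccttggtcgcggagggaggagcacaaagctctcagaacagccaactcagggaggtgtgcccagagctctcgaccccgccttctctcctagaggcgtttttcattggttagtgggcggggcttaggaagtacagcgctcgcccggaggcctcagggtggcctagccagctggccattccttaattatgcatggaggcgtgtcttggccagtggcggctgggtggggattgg
The capitals mark an E-box at position -60 from the start of Cry1 and a cyclic AMP element at -9 of Hlf. They also mark a kB match, read on the other strand, at -75 of Ifngr2. In the windows of Stat3, Stat6, Cry2, Rps6ka5 and Cdkn1a none of these letters was found. A match describes the letters and does not show binding. Over the called genes with a promoter, 4 of 91 higher and 4 of 70 lower genes held the cyclic AMP element (4.4% and 5.71%, against 2.03% of all genes), and 9 and 12 held an E-box (9.89% and 17.1%, against 8.09%). The glucocorticoid receptor core was held by 6 and 3 genes (6.59% and 4.29%, against 7.9%) and the STAT motif by 2 and 1 (2.2% and 1.43%, against 1.35%). Each kB and serum response motif was held by at most 1 gene in either direction.

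Of the immediate early genes 30 of 36 were described and 0 were called, 15 positive and 15 negative, with a median log2FC of -0.01 and 5 at an unadjusted p under 0.05 (13.7% of all described genes were, and 1.44% were called). Fos, the standard marker of recent neuronal firing, was at 0.148, 10.8 and 76.7 normalised CPM in SAL-SAL and at 2.14, 10.7 and 25.3 in SAL-LPS, with 7 libraries on either side of the control median (log2FC -0.41, SE 0.44). Jun, its partner in AP-1, had a log2FC of -0.84 (adjusted p = 0.105 in edgeR) and Maff one of 2.04 (SE 0.79, adjusted p = 0.13 in edgeR) at means of 0.79 and 3.28 normalised CPM. The phosphatases and feedback inhibitors of MAPK signalling also gave 0 calls in edgeR among 16 described (2 at an unadjusted p under 0.05), with a median log2FC of -0.02.

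Prostaglandin genes had 1 call among 11 described, Ptges2 (0.671% of described genes were called lower), a membrane-associated prostaglandin E synthase. Its level was 11.9, 24.8 and 48.5 normalised CPM in SAL-SAL and 9.53, 14.7 and 19.2 in SAL-LPS, with all 14 challenged libraries under the control median and overlapping ranges (log2FC -0.79, SE 0.19, adjusted p = 0.0288 in edgeR). Ptgs2, the inducible cyclooxygenase, had a log2FC of -0.84 and did not pass (adjusted p = 0.169 in edgeR). Among 22 described neuropeptides and activity-regulated factors 17 were negative (51.3% of all described genes were), with a median log2FC of -0.28. Nrn1, the neurite-promoting protein neuritin, was called lower, from 48.9 ± 18.5 to 28.0 ± 10.2 normalised CPM (SD; log2FC -0.80, SE 0.21). Ptges2 and Nrn1 were no longer called without the libraries with high Drd1 (log2FC -0.73 and -0.67, adjusted p = 0.0819 and 0.111 in edgeR).

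Heat shock and unfolded protein response genes (0 of 26 called, median log2FC -0.26), glycolysis genes (0 of 27, median -0.24), fasting genes (0 of 8), ionotropic glutamate receptor subunits (0 of 15) and GABA-A receptor subunits (0 of 12) gave no call in edgeR, with 5, 7, 0, 2 and 1 members at an unadjusted p under 0.05 (13.7% of all described genes). Hspa8, the constitutive chaperone, had 154, 230 and 859 normalised CPM in SAL-SAL and 50.8, 191 and 282 in SAL-LPS (log2FC -0.76, adjusted p = 0.0945 in edgeR). Grin1, the obligate NMDA receptor subunit, was above the control median in all 14 SAL-LPS libraries but changed little (log2FC 0.25, SE 0.11, adjusted p = 0.188 in edgeR). The lists with 0 calls over all libraries also had 0 without those with high Drd1, where the median log2FC was -0.25 for the immediate early, -0.09 for the NF-kB and 0.24 for the interferon genes. With marker covariates 1 member was called in each of 4 of these lists, Egr4, Dusp3 and Pfkl lower and H2-D1 higher.

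**Figure D4:**
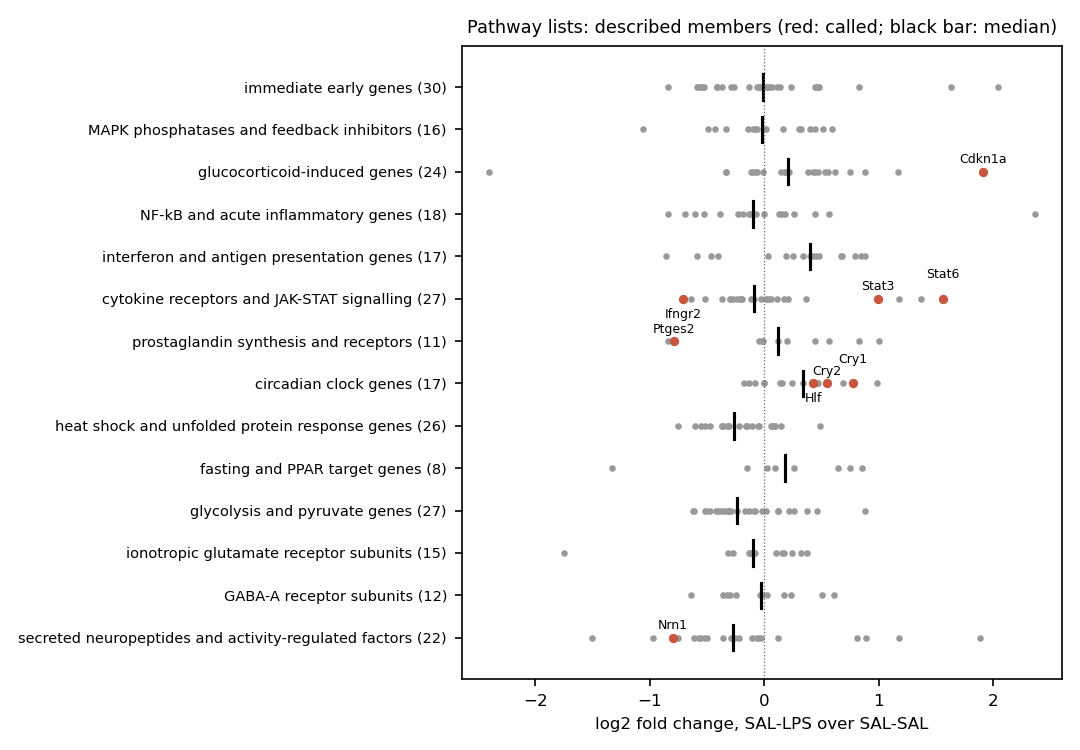
Log2 fold changes of the described members of 14 pathway lists, SAL-LPS over SAL-SAL, with called genes in red and a black bar at each list's median. The called members are Cdkn1a, Stat3, Stat6, Ifngr2, Ptges2, Cry1, Cry2, Hlf and Nrn1, and the medians lie between -0.28 and 0.40.

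Of the marker lists of neuron populations, 4 had a log2FC of 1 sign in every member, with at most 1 member called in each (1.44% of all described genes were). All 8 medium spiny neuron markers were positive (median log2FC 1.34, 0 called), all 8 dentate granule markers negative (median -0.47, 0 called) and all 8 thalamic markers negative (median -1.18, 1 called). All 7 CA3 pyramidal markers were negative too (median -0.27), with 1 called, Pvrl3 (log2FC -0.91), and 0 called without the libraries with high Drd1. The 7 CA1 pyramidal markers were mixed, with 2 positive and 5 negative (median -0.22). They summed to a median of 475 CPM in SAL-LPS and 448 CPM in SAL-SAL. Among them 1 was called lower, Fibcd1 (log2FC -1.25). Fibcd1 was not called without the libraries with high Drd1 (log2FC -0.79, adjusted p = 0.233 in edgeR). Without the libraries with high Drd1 the medians were -0.51 for the medium spiny, -0.02 for the dentate and -0.84 for the thalamic markers. With the log2 sums of the 3 lists as covariates, chosen after the data were seen, 357 genes were called, of which 136 were among the 202. Gm26917, a transcript that takes ribosomal RNA reads, had a median of 76133 CPM in SAL-LPS and 48886 in SAL-SAL. What part the make-up of the pools had in the called genes was not tested beyond these fits.

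The response of mice exposed to perinatal morphine, measured in 15 MOR-LPS and 11 MOR-SAL libraries that share no sample with those above, was read for the same genes. There 10 described genes were called (0.0714%). Of the 108 higher genes 77 had the same sign (71.3%, against 59.2% of genes not called), and of the 94 lower genes 58 had (61.7%, against 54.8%), with 1 and 0 called. Several lists of cell type markers also had positive values there. The median log2FC was 1.04 for the medium spiny, 1.37 for the microglial, 1.14 for the oligodendrocyte precursor, 0.84 for the astrocyte and 0.74 for the oligodendrocyte markers. For the glial lists the highest library sums lay farther apart than the median ones. In MOR-LPS and MOR-SAL the microglial markers summed to a median of 42.5 and 32.1 CPM (highest 448 and 69.2). The astrocyte markers summed to a median of 587 and 514 CPM (highest 2037 and 623). For the oligodendrocyte markers the medians were 423 and 340 CPM (highest 4313 and 981). The part of these markers in the shared signs was not tested. Cdkn1a was higher there too (log2FC 1.59, unadjusted p = 0.0038 in edgeR, adjusted p = 0.122), as was 1300017J02Rik (log2FC 1.63, unadjusted p = 0.000697, adjusted p = 0.0746 in edgeR). Rps6ka5 and Stat3 had a log2FC of 0.42 and 0.48, Npy2r one of -0.63, and Tsc1 and Usp3 were near 0, at -0.04 and -0.05. For the tubulins 13 of 15 were negative (median -0.34), beside 47.9% of all described genes in that comparison (median 0.01).

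The difference between the 2 responses was tested directly and passed for 53 described genes (0.378%), 20 with a more positive response after morphine and 33 with a more negative one. With the libraries of Drd1 above 10 CPM left out, 90 passed, 50 more positive and 40 more negative, and 19 of the 53 were among them. With rarely counted genes removed before the fit, 0 passed (smallest adjusted p = 0.0828 in edgeR, 1185 at an unadjusted p under 0.05), and DESeq2 called 13. Between the sexes 0 genes differed in their response to LPS (edgeR, 819 at an unadjusted p under 0.05, smallest adjusted p = 0.227). Males alone gave 74 called genes and females alone 0 (877 at an unadjusted p under 0.05, edgeR). All comparisons of the sexes, those of Stat3, Cry1 and Cry2 included, keep SAL-LPS 2-2 as a female and were not run without it.

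**Figure D5:**
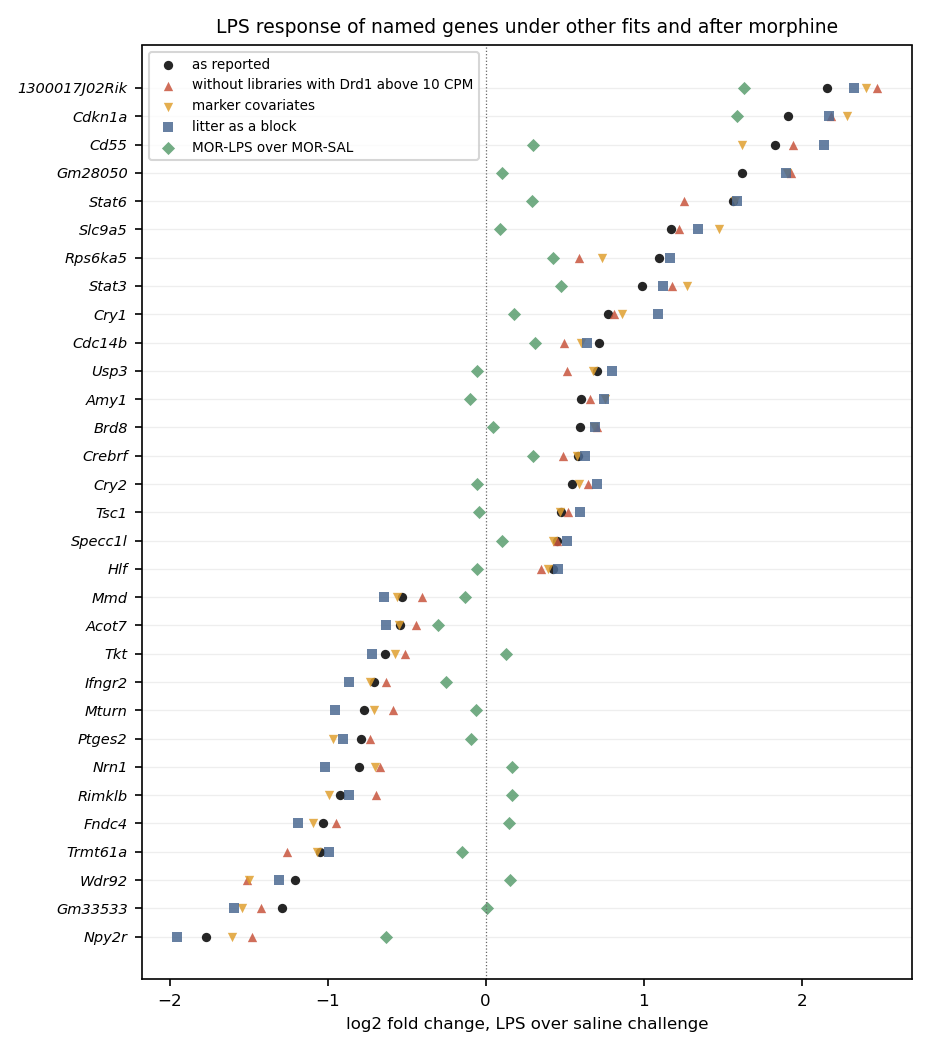
Log2 fold changes of 31 named genes under the reported fit (black), without libraries with Drd1 above 10 CPM, with marker covariates, with litter as a block, and in the morphine-exposed libraries (MOR-LPS over MOR-SAL). The first 4 lie on the same side of 0 for each gene, but they share libraries, so this is not independent support. The morphine-exposed values lie nearer 0 for each and across it for some, such as Tsc1 at -0.04.

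Finally, the hippocampal response was set against those of the other punched regions in 94 saline-exposed libraries from 32 animals (limma-voom with the animal as a block, 13967 genes). In that fit 66 genes were called in the hippocampus (0.473%), 429 in the prefrontal cortex (3.07%), 0 in the striatum (715 at an unadjusted p under 0.05, limma) and 1 in the hypothalamus (0.00716%). Drd1 stood above 10 CPM in 12 of 15 SAL-LPS and 11 of 13 SAL-SAL striatal libraries, and in 8 of 9 and 9 of 10 of the prefrontal cortex. The medium spiny markers summed to a median of 3779 and 3395 CPM in the striatum and of 3624 and 2987 CPM in the prefrontal cortex. In the prefrontal cortex the ribosomal transcript Rn18s-rs5 had a median of 9329 CPM in SAL-LPS and 35882 in SAL-SAL. Gm26917 had 33218 and 55599 CPM there. The thalamic markers had a median log2FC of -2.40 in the hypothalamus. The part of these differences in the regional counts was not tested. The hippocampal response differed from that of the prefrontal cortex in 43 genes (0.308%) and from those of the striatum and hypothalamus in 0 (560 and 913 at an unadjusted p under 0.05, limma). Cdkn1a had a log2FC of 2.44 in the hippocampus, 1.94 in the prefrontal cortex, 1.24 in the striatum and 1.77 in the hypothalamus. Rps6ka5 had 1.03, 0.71, 0.43 and 0.45 in the same order, and Tsc1 0.48, 0.35, 0.21 and 0.41. Saa3 had 3.07, 3.59, 2.60 and 3.59 and was called in the prefrontal cortex alone (adjusted p = 0.0901, 0.0447, 0.766 and 0.376 in limma). Adar and Znfx1 were positive in the hippocampus (0.49 and 0.64) and negative in the prefrontal cortex (-0.27 and -0.53), differences that did not pass the adjusted threshold (adjusted p = 0.0614 and 0.0636 in limma).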

How the data were processed

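The groups were taken from the deposited labels. The authors trimmed reads (Trim Galore 0.6.7), aligned them to mm10 with STAR 2.7.10a and deposited raw counts per gene, with HTSeq 0.12.4 and DESeq2 1.40.2 also in the submitters' processing notes, and the same values as CPM without a log transformation, used as log2(CPM + 1) in 1 alternative. Strand use in counting is not given in the sources used here. Of 55 hippocampal libraries, MOR-LPS 12-2 (2026248 counts) and MOR-SAL 13-1 (227025) fell under 0.5 of the median total (4592125.5) and were left out, which left 53 for the fit.

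Genes with a total count above 10 were fitted in edgeR 4.0.16 (R 4.3.3, TMM, quasi-likelihood) with the 4 conditions and sex, after the study's model, and called at an adjusted p under 0.05 (Benjamini-Hochberg over all 22069 genes fitted). Of 643 genes called, 441 (68.6%) were under 1 CPM and are not described. Normalised CPM is the count scaled by the TMM library size. Regions were compared with limma 3.58.1, and DESeq2 1.42.0 was an alternative.

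Named genes were the 12 higher and 12 lower of smallest p, up to 4 of smallest p from each pathway list, and Nfkb1, Il6, Irf7, Ifit1, Mx1 and Oas1a, of which Mx1, Oas1a and 1 of the lower genes are not reported here, and list members that did not pass the test are given only in part. Lpin1, Adar, Znfx1, Tubb5, Tubb2a, Tubb4b, Tuba1a, Fos and Nfkbia, those of the closing section, and the tubulin list, were chosen after their values were seen. All genes and lists were chosen with earlier results of these data known. Positions are from GENCODE M21 and promoters from RefSeq. In simulated counts with 100 genes at each size (21361 genes), the SAL-LPS against SAL-SAL fit recovered 57 at a log2FC of 1 and 83 at 2. It made 157 false calls, 9 of them among described genes and the rest among genes under 1 CPM, which enter the same adjustment. The counts were drawn independently, with no litter effect and no shared shift of cell type content. These false calls therefore do not measure those in the real libraries.

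The replicate label starts with the litter, as the study states, and 7 of 8 litters held both groups. Deviations of litter mates from the group means correlated between -0.06 and 0.16. Like libraries were compared within groups. The lowest chi-square per gene was 8.42 in SAL-LPS and 20.4 in SAL-SAL, above sampling noise, so none was treated as a repeated deposit. The p-values of the hippocampal fit rest on a spread between animals that is pooled over the 4 conditions. That includes 26 libraries of morphine-exposed mice, and litter is not in the model. With the 27 saline-exposed libraries alone, or with litter as a block, 0 described genes passed the adjusted threshold. Total counts limit precision through counting error only.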

Additional observations from a re-analysis of the deposited data

Results flagged for a closer look

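For 8 of the named genes the response to LPS differed between the exposures by the interaction test (edgeR, adjusted p under 0.05). The genes were named by their response after saline, which is part of the difference, so these values describe and are not independent evidence. The log2 difference, the response after morphine minus that after saline, was -0.57 for Adar, -0.70 for Amy1, -0.82 for Polr2a, -0.52 for Tsc1 and -0.76 for Usp3, all higher after LPS in saline-exposed mice and with a response after morphine of -0.08, -0.10, -0.16, -0.04 and -0.05. It was 1.09 for Rimklb, 0.77 for Tkt and 1.36 for Wdr92, all lower after LPS in saline-exposed mice and with a response after morphine of 0.17, 0.13 and 0.15. None of the 8 was called for the difference when rarely counted genes were removed before the fit.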

How the results depend on the processing

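The count of 202 called genes moved by more than 1.5 times to 43 with a mean CPM of at least 1 before the fit, 49 with filterByExpr, 118 with the low-depth libraries kept, 0 with the saline-exposed libraries alone, 0 in females and 74 in males, and 120 with limma on log2(CPM + 1). For litter, which pairs the groups, it was 0 with the litter block, 0 with the block and the CPM filter together (chosen after seeing the data), 15 in limma-voom with a correlation within litters (estimated at -0.02) and 0 with counts summed over litters. It was 357 with marker covariates. Leaving out 1 library gave 99 to 253, and leaving out the saline animals of 1 litter gave 62 (litter 1), 56 (10), 57 (11), 330 (2), 0 (3), 134 (4), 145 (5) and 125 (9). It stayed within 1.5 times in DESeq2 (242), with DESeq2 size factors (204), with no filter (155), with no sex term (297), without libraries whose Y-linked counts contradict their sex label (258) and without libraries with Drd1 above 10 CPM (142). With library size as the only scaling it was 217, of which 26.7% were higher against 53.5% in the reported fit, and the median of all described genes shifted to -0.09. The cause of these shifts was not tested.

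The 53 genes differing between exposures became 13 in DESeq2, 0 with the CPM filter, 25 with the low-depth libraries kept, 90 without libraries with Drd1 above 10 CPM and 153 with marker covariates. Between regions the count of 43 became 29 without the animal block, and the counts of 0 did not move. Of 2430 alternative values of called named genes 688 lost the call and 0 turned sign. The alternatives refit largely the same libraries in which these genes were called, so a kept sign is not independent support. Among uncalled genes the sign turned for Nfkb1 with marker covariates (0.046), Irf7 without libraries with Drd1 above 10 CPM (-0.30) and Fos in limma-voom with litters (0.70), limma on CPM (0.11) and with 1 library left out (from -0.53 to 0.19, positive only without SAL-SAL 1-1).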

Other observations

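Among the called genes not described above, chosen after their values were seen, Eef2, the elongation factor of translation, had a log2FC of -0.76 and the nuclear import factor Kpnb1, whose exons overlap Gm11583, one of -0.44. On the higher side, Polr2a, the largest subunit of RNA polymerase II, had a log2FC of 0.66, and Stim1, the calcium sensor of the endoplasmic reticulum, one of 0.44. Kdm3a, a histone H3 demethylase, had a log2FC of 0.53 and Pias1, an inhibitor of STAT signalling, one of 0.33. Without the libraries with Drd1 above 10 CPM, Polr2a and Pias1 stayed called (log2FC 0.88 and 0.43), while Eef2, Kpnb1, Stim1 and Kdm3a did not (log2FC -0.80, -0.31, 0.43 and 0.40, adjusted p = 0.0646, 0.174, 0.0739 and 0.147 in edgeR).

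Pairs of libraries within a group differed in how alike they were. Over described genes the log2 normalised CPM of 2 SAL-LPS libraries correlated at a median r of 0.908 (91 pairs, 0.834 to 0.981), and that of 2 SAL-SAL libraries at 0.929 (78 pairs, 0.810 to 0.977). The most alike pair, SAL-LPS 10-4 and 3-1, came from different litters and both had Drd1 above 10 CPM.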
